A study of Mus musculus with 4 samples.

Results

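Tenascins, nephronectin and other matrix proteins that modulate adhesion were examined as 10 genes out of the 24346 gene symbols measured by RNA-seq. They are the tenascins Tnn, Tnc and Tnxb, nephronectin (Npnt), periostin (Postn), the thrombospondins Thbs1 and Thbs2, Sparc, fibronectin (Fn1) and vitronectin (Vtn), and each was taken as the row with that gene symbol. The genes were picked by their protein family with earlier results of these data known. Tnn and Npnt were selected on their fall in these same samples, so their difference is described without a test. The cells were bone marrow-derived mesenchymal stem/progenitor cells (mBMSCs) of 3-month-old mice, given as C57BL/6 in the labels and as C57BL/6J in the methods. Both groups were transfected with siRNA in Lipofectamine RNAiMAX, 2 samples with a scramble control (siScr) and 2 with siRNA against ZBP1 (siZBP1), a sensor of nucleic acids. The siRNA used for these libraries is not named in the sources used here, so that a single siRNA sequence may stand behind both siZBP1 samples. Whether the samples of a group came from separate animals or cultures is not stated, and p-values then measure only the spread between these samples, which may be technical.

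The extracellular matrix of bone and its progenitor cells holds structural proteins, above all collagens, and proteins that change how cells hold on to them. Fibronectin and vitronectin bind integrins through an RGD sequence and favour adhesion. Matricellular proteins, which include the tenascins, the thrombospondins, periostin and SPARC, are secreted into the matrix without being its main scaffold and modulate cell adhesion, growth factor activity and collagen assembly. Tnn encodes tenascin-W, a tenascin of periosteum and other osteogenic tissue, and nephronectin is a ligand of integrin α8β1 that is also made by osteoblast-lineage cells.

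The values are FPKM, fragment numbers divided by transcript length and by the sample's mapped total, which can be compared between genes. Zbp1 itself was at 86.0 and 62.0 FPKM in the siScr samples and at 11.5 and 11.6 FPKM in the siZBP1 samples, with a limma log2 fold change of -2.56 (SE 0.16, adjusted p = 0.00322). The FPKM of all genes summed to between 477974 and 492166 per sample. Read totals are not among the values used here, and a rough estimate from the spacing of the lowest values gave 14.1 and 20.9 M fragments for siScr and 10.3 and 18.7 M fragments for siZBP1. Log2 fold changes are siZBP1 minus siScr on the log2(FPKM + 1) scale, which understates the change of low genes, and genes with a mean of at least 1 FPKM were tested. The smallest two-sided p of an exact permutation test of 2 against 2 samples is 0.333, and every adjusted p rests on the spread that limma shares over 11959 genes.

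In siZBP1 cells the tenascins Tnn and Tnc, Npnt and Postn were lower than in siScr cells, and Fn1 was higher. Among the 6 tested members other than Tnn and Npnt, limma called Postn and Tnc lower, Fn1 higher, and Thbs1, Thbs2 and Sparc neither. Tnn and Npnt are not counted as calls. Among all 11959 tested genes, 14.8% were called lower and 13.5% higher, and nothing is read from the members' share, since they were proposed with their change known. The log2 fold changes of these 6 had a median of -0.22, against 0.0045 over all tested genes, with the same limit. The groups did not overlap for any of the 6, with siZBP1 below in 4 and above in 2, while siZBP1 lay below without overlap in 33.7% and above in 34.7% of all tested genes. Tnxb and Vtn were under the minimum and were not tested.

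**Figure D1:**
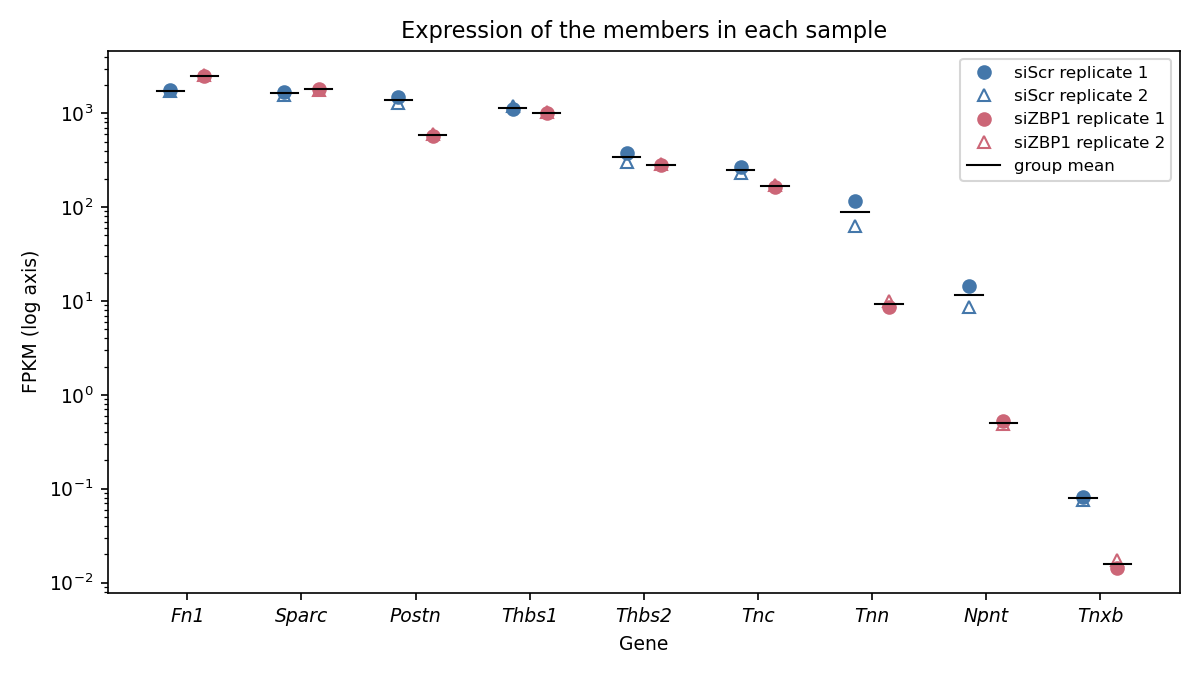
FPKM (vertical log axis) of 9 of the 10 genes in each of the 4 samples, with siScr and siZBP1 replicates as points and the group means marked. Both siZBP1 points lie below both siScr points for Tnn, Npnt, Postn, Tnc, Thbs1, Thbs2 and Tnxb, and above them for Fn1 and Sparc. Of all tested genes, 33.7% lay below and 34.7% above without overlap. Vtn is left out because 3 of its 4 values are 0.

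Tnn, a tenascin of osteogenic tissue, was lower in siZBP1. It lies at chr1:160085029-160153580 on the minus strand (GRCm38, which is mm10; gene ENSMUSG00000026725.17) and its reference transcript has 22 exons. Tnn was at 117 and 62.4 FPKM in the siScr samples and at 8.74 and 9.92 FPKM in the siZBP1 samples. Both siZBP1 samples were far below both siScr samples, and the siScr samples differed from each other more than the siZBP1 samples did, by 1.88-fold against 1.14-fold. The means were 90.0 ± 38.9 and 9.33 ± 0.836 FPKM (SD, n = 2), a 9.64-fold lower level, and the lower siScr value was 6.29 times the higher siZBP1 value. The log2 fold change was -3.07 (SE 0.31, which takes no account of the selection on this fall), and 42 of the tested genes had a larger estimated fall. In a ranking of all genes by mean FPKM, Tnn went from place 817 in siScr to place 6825 in siZBP1.

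Npnt lies at chr3:132881745-132950291 on the minus strand, with 7 annotated transcripts. It was at 14.4 and 8.59 FPKM in siScr and at 0.525 and 0.488 FPKM in siZBP1. Again no siZBP1 sample reached a siScr sample, and the siScr samples stood 1.68-fold apart, replicate 1 above replicate 2 as for Tnn. Npnt was 22.7-fold lower in siZBP1, with means of 11.5 ± 4.12 and 0.506 ± 0.0260 FPKM (SD, n = 2). On the log2(FPKM + 1) scale this was -3.01 (SE 0.24, with the same limit as for Tnn), and with 0.1 in place of 1 added to each value it was -4.21. At the estimated depth and a transcript of 4619 bases, the siZBP1 values stand for about 24.9 and 42.1 fragments, against 937 and 828 in siScr. For the reference transcript of 1830 bases they would be 9.86 and 16.7, against 371 and 328. A ratio this large therefore rests on few fragments in siZBP1.

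The sequences just before the start sites of Tnn, Npnt and Postn, the tested members with the largest ratios of siScr to siZBP1, are shown because these 3 genes were lower together. Each is the 250 bases upstream of a RefSeq start on GRCm38.p6, read 5′ to 3′ on the gene's strand in lower case, with capitals for a match to one of the motifs searched. The windows are chr1:160153576-160153825 (minus strand) for Tnn, chr3:132950292-132950541 (minus strand) for Npnt and chr3:54360857-54361106 (plus strand) for Postn.
Tnn: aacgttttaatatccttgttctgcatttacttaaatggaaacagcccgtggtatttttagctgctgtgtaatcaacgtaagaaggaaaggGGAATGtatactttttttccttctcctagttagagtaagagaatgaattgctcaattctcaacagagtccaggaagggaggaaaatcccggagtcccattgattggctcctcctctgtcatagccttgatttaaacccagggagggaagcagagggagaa
Npnt: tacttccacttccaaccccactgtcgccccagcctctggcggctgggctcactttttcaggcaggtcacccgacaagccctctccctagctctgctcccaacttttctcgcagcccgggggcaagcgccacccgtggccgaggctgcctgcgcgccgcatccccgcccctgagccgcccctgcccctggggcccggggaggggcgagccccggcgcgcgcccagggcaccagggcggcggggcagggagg
Postn: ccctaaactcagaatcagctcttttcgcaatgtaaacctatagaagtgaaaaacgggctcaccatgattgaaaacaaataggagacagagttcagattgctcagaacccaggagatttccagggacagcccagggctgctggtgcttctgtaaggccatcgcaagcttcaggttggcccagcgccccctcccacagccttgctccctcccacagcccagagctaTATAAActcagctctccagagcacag
The core motifs were searched on both strands. RUNX factors were searched with the letters TGTGGT, and TCF/LEF factors, which act in Wnt signalling, with CTTTGAT. TEAD factors, which act in Hippo signalling, were searched with GGAATG and the TATA box with TATAAA, and no printed match overlaps another motif. The Tnn window holds GGAATG at position -160 from the start site, the Postn window holds TATAAA at position -26, and the Npnt window holds none of the 4 motifs. G and C made up 42.0% of the Tnn window, 74.0% of the Npnt window and 52.0% of the Postn window. A RefSeq promoter was at hand for 8 of the 10 genes, not for Fn1 and Thbs1. Npnt, Postn and Tnc each had another RefSeq start, and a gene was counted if any of its windows matched. The other windows of Npnt and Postn, not printed, held no match. Of these 8 genes, 0 held the RUNX motif, 0 the TCF/LEF motif and 2 the TEAD motif (Tnn and Vtn). The letters TATAAA on either strand were in 4 (Postn, Tnc, Thbs2 and Vtn), at -126 or further upstream in all but Postn. Of all 32851 promoters, counted as single windows, the shares were 14.0%, 3.21%, 12.6% and 12.4%. A count of genes and a share of windows are unlike measures. For Zbp1 the paper looked for a broader Wnt core, CTTTG(A/T)(A/T), over a longer stretch around the start site. The TCF/LEF count here is therefore not comparable with that search. A match describes letters in a window and is not a site of binding.

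Of the other tenascins, Tnc encodes tenascin-C, which interferes with adhesion to fibronectin and is found in developing bone and in wounds. Tnc (chr4:63959785-64047015, minus strand) was at 270.0 and 232 FPKM in siScr and at 164 and 174 FPKM in siZBP1. Both siZBP1 values were below both siScr values. It fell 1.49-fold, from 251 ± 26.9 to 169 ± 6.77 FPKM (SD, n = 2), with a limma log2 fold change of -0.56 (SE 0.08, adjusted p = 0.0139). Tnc was already the more abundant of these tenascins in siScr, at 2.30 and 3.72 times the FPKM of Tnn, and in siZBP1 the ratio was 18.8 and 17.5. Tnxb (chr17:34670535-34719815, plus strand), which encodes the tenascin of loose connective tissue that takes part in collagen deposition, was at 0.0824 and 0.0757 FPKM in siScr and at 0.0142 and 0.0174 FPKM in siZBP1. These values stand for an estimated 14.2 and 19.3 fragments in siScr and 1.78 and 3.96 in siZBP1, too few for a fold change.

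Postn (chr3:54361109-54391037, plus strand) encodes periostin, a protein of periosteum and other collagen-rich tissue that binds integrins and takes part in collagen cross-linking. It was at 1476 and 1275 FPKM in siScr and at 577 and 602 FPKM in siZBP1, so that even the lower siScr sample stood above both siZBP1 samples. The means were 1376 ± 142 and 589.5 ± 17.8 FPKM (SD, n = 2), a 2.33-fold fall with a limma log2 fold change of -1.22 (SE 0.08, adjusted p = 0.00343). Postn went from place 26 to place 95 in the ranking of all genes by FPKM.

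The thrombospondins are trimeric or pentameric glycoproteins that bind calcium and cell surface receptors. Thbs1, which activates latent TGF-β and binds CD36 and CD47, was at 1123 and 1186 FPKM in siScr and at 1007 and 1026 FPKM in siZBP1. The siZBP1 samples were below the siScr samples, by a log2 fold change of -0.18 (SE 0.05, 95% interval from -0.32 to -0.05), which did not pass (limma adjusted p = 0.0565). Thbs2, a relative that lacks the TGF-β-activating sequence and is made by marrow stromal cells, was at 378 and 306 FPKM in siScr and at 278 and 289.9 FPKM in siZBP1. One siScr sample stood close to the siZBP1 samples, and the log2 fold change of -0.26 (SE 0.11, 95% interval from -0.54 to 0.03) did not pass either (limma adjusted p = 0.145). Both calls turned with the settings, since the adjusted p of Thbs1 was 0.0424 with a pseudocount of 0.1 and 0.0357 with a minimum of 5 FPKM, and that of Thbs2 was 0.0294 without siScr replicate 2.

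Sparc encodes osteonectin, a collagen- and calcium-binding protein abundant in bone matrix. It was at 1679 and 1583 FPKM in siScr and at 1811 and 1792 FPKM in siZBP1. The siZBP1 samples were slightly above the siScr samples, by 0.14 on the log2 scale (SE 0.05, 95% interval from 0.0022 to 0.29), and the difference did not pass (limma adjusted p = 0.115).

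Fn1 is the member that rose. Fibronectin is the fibril-forming adhesion protein on which cells assemble much of their early matrix, and integrin α5β1 is its main receptor. Fn1 (chr1:71585520-71653200, minus strand, 17 annotated transcripts) was at 1755 and 1712.5 FPKM in siScr and at 2502 and 2539 FPKM in siZBP1. Each siZBP1 sample was well above each siScr sample, and replicates lay within a narrow range. The means were 1734 ± 30.2 and 2521 ± 26.1 FPKM (SD, n = 2), a 1.45-fold rise with a limma log2 fold change of 0.54 (SE 0.05, adjusted p = 0.00530). The splice forms of Fn1 and of Tnc, which differ in the domains they carry, cannot be told apart in gene-level values. Vtn, which encodes a plasma adhesion protein made mainly in liver, was listed at 0 in siScr replicate 1 and in both siZBP1 samples, and at 0.0257 FPKM in siScr replicate 2, an estimated 0.94 fragment.

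Without siZBP1 replicate 1 or without siZBP1 replicate 2, limma called 0 of the 6 tested genes other than Tnn and Npnt in either direction. At an unadjusted p under 0.05, 2 were then lower and 1 higher. Strand was not stated for the counting, and Tnc, Thbs1 and Fn1 share 176, 208 and 292 exonic bases with genes on the opposite strand. The antisense partner of Fn1, Apol7d, was at 0 to 0.327 FPKM.

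The order of the levels was nearly the same in both groups. In siScr it was Fn1, Sparc, Postn, Thbs1, Thbs2, Tnc, Tnn, Npnt, Tnxb and Vtn, and in siZBP1 Postn and Thbs1 had changed places. No 2 neighbours in either order overlapped in their values, but a step could be smaller than the spread of the replicates. In siScr the lower Fn1 value was 1712.5 FPKM, and the Sparc values were 1679 and 1583 FPKM. The summed FPKM of the 10 genes was 6814 and 6367 in siScr and 6349 and 6434 in siZBP1, or 1.31% to 1.38% of the FPKM of all genes.

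The sums of the groups overlapped, while their make-up differed. Fn1 was 25.8% and 26.9% of the summed FPKM in siScr and 39.4% and 39.5% in siZBP1. Postn was 21.7% and 20.0% in siScr and 9.09% and 9.36% in siZBP1. In FPKM the mean of Fn1 was higher by 787 in siZBP1 and that of Postn dropped by 786, and the ratio of Fn1 to Postn was 1.19 and 1.34 in siScr and 4.34 and 4.22 in siZBP1. Tnn and Npnt made up little of the sum: Tnn was 1.72% and 0.980% in siScr and 0.138% and 0.154% in siZBP1.

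**Figure D2:**
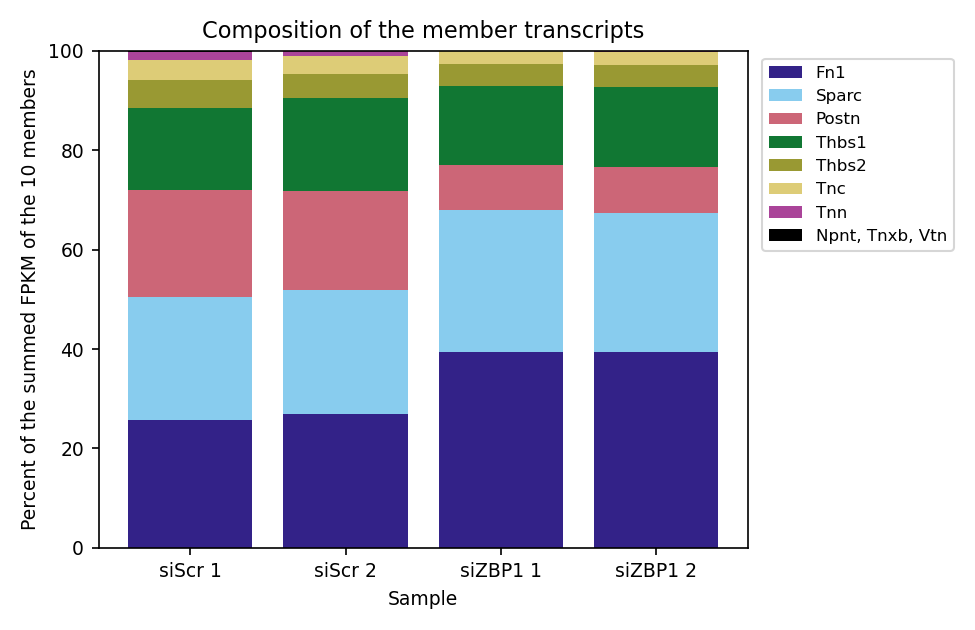
Share (percent of the summed FPKM of the 10 genes, vertical axis) of each gene in each of the 4 samples as stacked bars, with Npnt, Tnxb and Vtn combined. Fn1 takes 25.8% and 26.9% in the siScr samples and 39.4% and 39.5% in the siZBP1 samples, and Postn 21.7% and 20.0% against 9.09% and 9.36%.

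The genes whose pattern over the 4 samples was most like that of Tnn and Npnt were found by the distance between log2(FPKM + 1) values, each less its gene mean, over the 4 samples. For Tnn the nearest were Ackr4 (distance 0.226), Alpl (0.316) and Sfrp2 (0.422), and for Npnt they were Alpl (0.107), Ackr4 (0.140) and Cxcl12 (0.330). The distance between Tnn and Npnt was 0.217. Alpl, the alkaline phosphatase of mineralizing cells, was at 243 and 157 FPKM in siScr and at 25.7 and 23.0 FPKM in siZBP1. Ackr4, an atypical receptor that scavenges chemokines, was at 13.4 and 8.12 against 0.439 and 0.566 FPKM. In all of these genes siScr replicate 1 was above siScr replicate 2, and likeness over 4 samples from the same libraries carries no test.

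**Figure D3:**
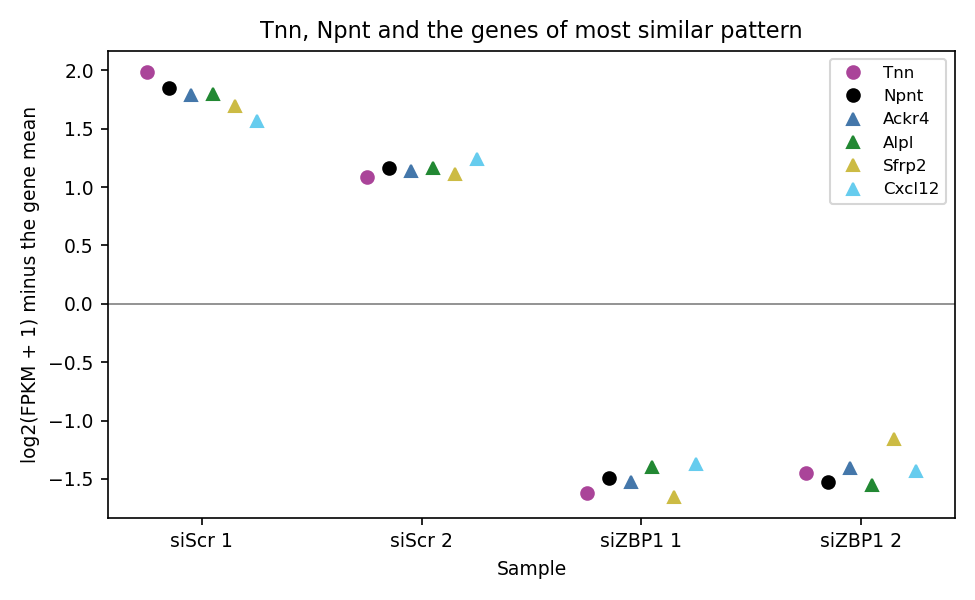
Log2(FPKM + 1) less the gene's mean over the samples (vertical axis) in each of the 4 samples for Tnn and Npnt (circles) and the 4 genes of most similar pattern (triangles). All 6 genes are above 0 in both siScr samples, higher in siScr replicate 1 than in replicate 2, and below 0 in both siZBP1 samples.

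Other matricellular proteins, a list of 28 that holds no member, had 15 tested genes, of which 9 fell, 4 rose and 2 did not pass. Their log2 fold changes had their median at -0.81. Of the other 13, under the minimum, nothing was tested. Among all tested genes, 14.8% were called lower and 13.5% higher. Nothing is read from the list's share, since the list was chosen with earlier results of these data known. The genes that fell were Ctgf, Cyr61, Nov, Wisp1, Wisp2, Fbln1, Fstl1, Smoc2 and Thbs3, of which the first 5 are CCN proteins, secreted regulators of adhesion and growth factor signalling. Wisp2 was at 147 and 126 FPKM in siScr and at 40.2 and 40.5 FPKM in siZBP1, a limma log2 fold change of -1.73 (SE 0.08, adjusted p = 0.00231). Ctgf was at 323 and 361 against 119 and 132 FPKM, a log2 fold change of -1.44 (SE 0.08, limma adjusted p = 0.00277). The genes that rose were Spp1, Ecm1, Edil3 and Matn2. Spp1, which encodes osteopontin, an RGD-containing protein of bone and of macrophages, was at 1516 and 2625 FPKM in siScr and at 4651 and 4447 FPKM in siZBP1, a log2 fold change of 1.19 (SE 0.27, limma adjusted p = 0.0356). Ecm1 was at 215 and 199.7 against 301 and 293 FPKM, with a log2 fold change of 0.52 (SE 0.05, limma adjusted p = 0.00616). Tgfbi, the closest relative of Postn, was at 168 and 221 against 265 and 272 FPKM, with a log2 fold change of 0.47 (SE 0.13, limma adjusted p = 0.0601). Mfge8, an RGD protein that bridges cells and phosphatidylserine, was at 204 and 229.9 against 242 and 231 FPKM and did not pass (log2 fold change 0.13, SE 0.07, limma adjusted p = 0.250). Without either siZBP1 sample limma called 0 of the 15, with 9 lower and 2 to 3 higher at an unadjusted p under 0.05.

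Of 24 receptors for these matrix proteins, 20 were tested: 9 fell, 7 rose and 4 did not pass. The median of their log2 fold changes was -0.14. Of all tested genes, 14.8% were called lower and 13.5% higher. This list too was chosen with earlier results known, and nothing is read from its share. The genes that fell were the collagen and laminin integrin chains Itga1 and Itga3, Itga5, Itgb7, Cd36, Plaur and the syndecans Sdc1, Sdc2 and Sdc3. Itga5 is the α chain of the fibronectin receptor α5β1. The genes that rose were the αv chain Itgav, its partners Itgb3, Itgb5 and Itgb8, Itga4, Cd47 and Stab1. Itgb1, the β chain shared by the fibronectin and nephronectin receptors, was at 379.5 and 416 FPKM in siScr and at 377 and 395 FPKM in siZBP1, and the groups overlapped (log2 fold change -0.04, SE 0.06, limma adjusted p = 0.646). Itga5, named after its values were seen, was at 86.0 and 77.4 against 58.0 and 60.5 FPKM (log2 fold change -0.46, SE 0.06, limma adjusted p = 0.0121). Itgav was at 109 and 113 against 151 and 151 FPKM (log2 fold change 0.44, SE 0.04, limma adjusted p = 0.00524), and Itgb5 at 162 and 173 against 228 and 217 FPKM (log2 fold change 0.41, SE 0.05, limma adjusted p = 0.00999). Sdc3 was at 274 and 240.3 against 148 and 150.2 FPKM (log2 fold change -0.78, SE 0.07, limma adjusted p = 0.00543). Sdc1 was at 61.4 and 56.6 against 32.6 and 31.5 FPKM, Itga3 at 4.61 and 3.57 against 0.728 and 1.06 FPKM and Itga1 at 4.25 and 4.61 against 1.52 and 1.86 FPKM. Their log2 fold changes were -0.86, -1.42 and -1.02, with limma adjusted p-values of 0.00338, 0.00838 and 0.00797. Itga8, whose protein is the α chain of the nephronectin receptor, was under the minimum, at 0.227 and 0.154 FPKM in siScr and 0.0635 and 0.0499 FPKM in siZBP1. Lrp1, an endocytic receptor for thrombospondins, did not pass either, at a log2 fold change of 0.11 (SE 0.04, limma adjusted p = 0.0839). Without either siZBP1 sample limma called 0 of the 20, with 9 lower and 6 higher at an unadjusted p under 0.05, and without siScr replicate 1 or 2 it called 3 or 4 higher.

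**Figure D4:**
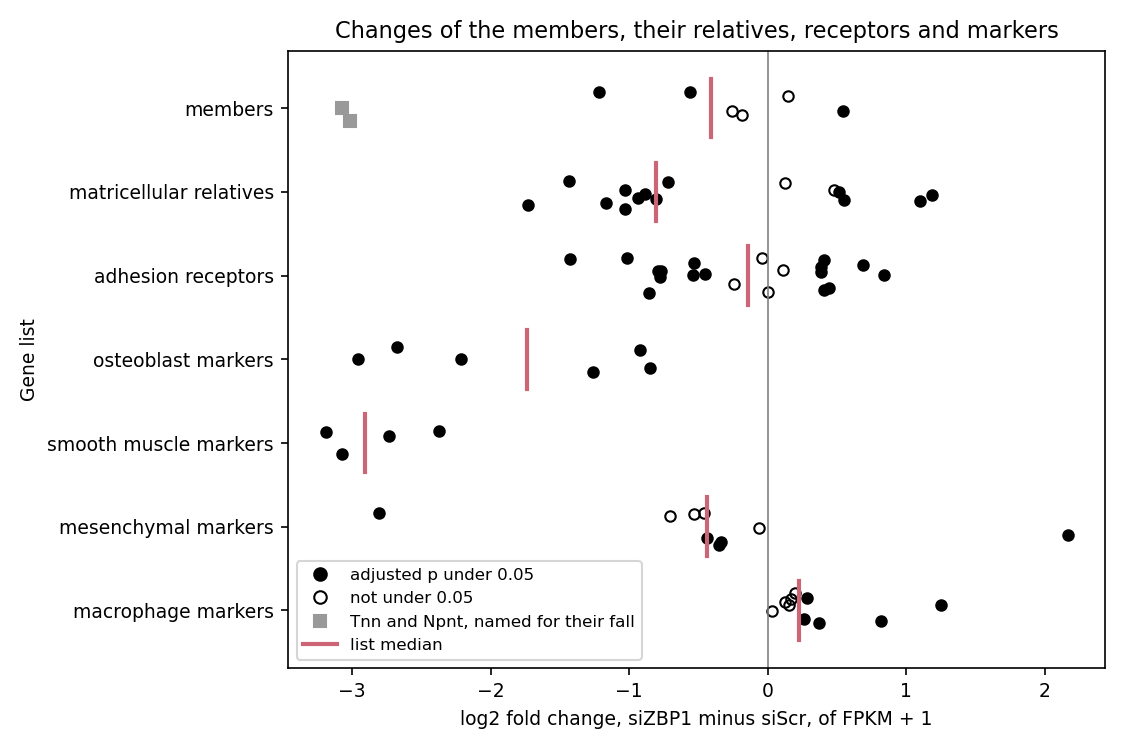
Log2 fold change of FPKM + 1, siZBP1 minus siScr (horizontal axis), of each tested gene of 7 lists (rows), with filled points for an adjusted p under 0.05, open points for the rest, squares for Tnn and Npnt, and a line at each list's median. The medians run from -2.91 for smooth muscle markers to 0.23 for macrophage markers. The line of the members, drawn over 8 genes with Tnn and Npnt, is at -0.41. Over the 6 other tested members the median is -0.22, and Tnn and Npnt were selected on their fall.

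Markers of other cell types moved with the groups. In a bulk culture fewer cells of a type and less RNA per cell cannot be told apart. The marker lists were also chosen with earlier results known, and 14.8% of all tested genes were called lower and 13.5% higher. All 6 listed osteoblast markers fell, by a median of -1.74 (log2), and their summed FPKM was 3477 and 2852 in siScr and 1192 and 1251 in siZBP1. Most of each sum was Col1a1, the main collagen chain of bone, at 3066 and 2520 against 1128 and 1191 FPKM. Ibsp, bone sialoprotein, was at 116 and 139 against 27.5 and 25.9 FPKM. Spp1, which the paper counts among osteogenic markers, was not in this list and rose, at a log2 fold change of 1.19. Sparc, also of bone matrix, was not in the list either and was not called, at 0.14. The fall of all listed markers therefore depends on which genes were listed. All 4 tested of 6 smooth muscle markers fell too, with a median of -2.91 and sums of 1128 and 1151 against 174 and 203 FPKM. Of 10 macrophage markers, 5 rose, 5 did not pass and 0 fell, with a median of 0.23. Their sums, in each of which Lyz2 made up most, were 4768 and 5643 against 8273 and 7738 FPKM. All 10 were over 1 FPKM in every sample, so macrophage RNA was present in cultures labelled mesenchymal, with Lyz2 at 2814 and 3647 against 5871 and 5402 FPKM and Csf1r at 467 and 470.0 against 584 and 558 FPKM. Of 10 mesenchymal markers 9 were tested, of which 4 fell and 1, Nt5e, rose. The sums over all 10 were 502 and 412 against 319 and 315 FPKM. Ly6a, which was not called, was the largest part of each. Endothelial markers were low, with 1 of 6 tested (Kdr, not past the test) and sums of 4.60 to 5.53 FPKM. Macrophages also transcribe Fn1, Thbs1 and Spp1, and the part of these markers in the results for the matrix genes was not tested.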

How the data were processed

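The authors deposited 1 table of FPKM values per gene symbol for 4 samples, together with their group means, which were not used. Per the methods, reads of TruSeq libraries were aligned by TopHat (to mm10 per the submitters' processing notes, which also name Cufflinks) and FPKM was extracted with HTSeq. Gene annotation, filters, strand setting and read totals are not given in the sources used here. The table held 0 value columns of no sample.

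Values were analysed as log2(FPKM + 1) with limma 3.58.1 in R 4.3.3 (variance trend, siZBP1 minus siScr, all 4 samples, group as the only term) for the 11959 genes with a mean of at least 1 FPKM, with Benjamini-Hochberg adjustment and calls at 0.05. The fit was tested on simulated data whose noise came from the siZBP1 samples alone, shuffled over genes. Groups of unequal spread were not simulated. Python 3.11.15, numpy 2.4.6, pandas 2.3.3 and matplotlib 3.10.9 were used, with GENCODE M21 on GRCm38 for gene models and RefSeq GRCm38.p6 for promoters.

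The members and lists were chosen with earlier results of these data known. Named genes were all 10 members, the 5 genes of highest mean FPKM and the 3 of largest called change in the lists of other matricellular proteins and receptors, up to 3 of highest mean FPKM per marker list, and the 3 nearest patterns for Tnn and Npnt. Other names were added after their values were seen. Fragment numbers were estimated from transcript length and the estimated depth, and cover no counting error. Alternatives were 7 other settings and each sample left out in turn.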

Additional observations from a re-analysis of the deposited data

How the results depend on the processing

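With all 4 samples kept, under 7 settings (pseudocount 0.1, no minimum, minimum of 5 FPKM, quantile normalization, upper-quartile scaling, no variance trend, replicate block), the 6 tested members other than Tnn and Npnt kept direction in 42 of 42 values; 40 kept their side of the threshold and 2, both of Thbs1, newly passed it. Quantile normalization moved the median of all genes by most, to 0.04. With no minimum, 2 of the other matricellular proteins were called higher in place of 4; the cause was not tested.

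Whether samples of equal replicate number belong together is not stated. Replicate 1 deviations of both groups correlated at r = -0.06 over 11959 genes, which with 2 samples per group cannot settle it. With the replicate block, 2 of the 6 members were called lower and 1 higher. So were 9 and 5 other matricellular proteins, 9 and 7 receptors, and 1654 and 1465 of all genes.

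Leaving out each sample in turn gave 0 to 3 of the 6 members lower and 0 to 1 higher (0 to 5 and 0 to 1 with Tnn and Npnt), 0 to 9 and 0 to 4 other matricellular proteins, 0 to 9 and 0 to 4 receptors, and 23 to 1297 and 22 to 1019 of all genes. All counts of 0 came without a siZBP1 sample, which leaves that group with 1 sample assumed to vary like the others. Postn, Tnc and Fn1 then had limma adjusted p-values of 0.0689 to 0.132, and no other tool was run. Without siScr replicate 1, 760 genes were lower, 518 genes and 3 receptors higher, and without siScr replicate 2, 1019 genes and 4 receptors higher. The direction of the 6 members held in 24 of 24 such values. The depth estimate limits Npnt, Tnxb and Vtn most in siZBP1.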
